A study of Rattus norvegicus with 29 samples.

Results

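The circadian clock genes of the nucleus accumbens shell were examined in P rats, the alcohol-preferring line, which was selected over generations for high ethanol intake. The genes were Per1, Per2, Per3, Cry1, Cry2, Clock, Bmal1, Nr1d1, Nr1d2 and Dbp. These 10 genes, of 14218 with a probe set of 1 symbol, were followed through 18 probe sets of the 31099 in the Affymetrix table. These were all that the platform's annotation gives to exactly 1 of the 10 genes. Each probe set was kept apart. The accumbens shell lies in the ventral striatum and takes part in reward. Total RNA from P rats exposed to continuous ethanol was on 10 arrays, from P rats with limited access to ethanol on 10, and from P rats on water only on 9. The design counts 10 water samples, of which 1 was not analysed here. All animals were of the P line, so there is no other strain to set them against, and the labels state neither sex and age nor the ethanol dose, the length of drinking or the time of day at which tissue was taken. They do not say either that arrays of a group came from separate animals, so the p-values speak of the spread between arrays, part of which may be technical.

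The mammalian clock is a feedback loop of transcription. CLOCK and BMAL1 form a dimer that binds E-boxes and switches on the Per and Cry genes, whose proteins return to the nucleus and repress that dimer. NR1D1 and NR1D2 (REV-ERB alpha and beta) form a further loop by repressing Bmal1, and DBP is an output factor that activates genes through D-boxes. In the striatum clock proteins are known to act on dopamine signalling, and mice with a mutant Per2 drink more ethanol. Transcripts of most of these genes cycle over the day, so that a level read at an unknown hour is a level at that phase only.

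The promoters of Per2, which had the largest difference between groups, and of Bmal1, which stands on the opposite arm of the loop, are shown for the motifs known to bind these factors. The letters are the 250 bases before the start of each gene, from RefSeq on the rat assembly GRCr8, read 5′ to 3′ on the gene's strand. Capitals mark matches, on either strand, to any of 7 motifs that were searched: the E-box CACGTG, the non-canonical E-box CACGTT, the D-boxes TTATGTAA and TTACGTAA, the REV-ERB and ROR elements TAGGTCA and TGGGTCA, and the cyclic AMP response element TGACGTCA.
Per2, chr9:99496994-99497243, minus strand: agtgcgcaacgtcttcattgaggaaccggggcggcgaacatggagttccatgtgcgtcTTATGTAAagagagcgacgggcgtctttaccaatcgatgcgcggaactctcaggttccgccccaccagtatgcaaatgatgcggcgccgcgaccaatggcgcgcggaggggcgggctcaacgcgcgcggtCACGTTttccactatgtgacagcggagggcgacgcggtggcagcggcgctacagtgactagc
Bmal1, chr1:176766078-176766327, plus strand: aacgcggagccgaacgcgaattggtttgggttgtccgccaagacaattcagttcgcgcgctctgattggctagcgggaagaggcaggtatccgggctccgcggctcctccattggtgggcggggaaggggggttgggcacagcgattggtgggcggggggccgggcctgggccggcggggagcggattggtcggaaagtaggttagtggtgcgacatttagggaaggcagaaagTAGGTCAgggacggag
Per2 held 1 D-box TTATGTAA, starting at base -192 from the start of the gene, and 1 E-box CACGTT at -62. Of 33469 rat promoter windows of the same length, 0.828% held TTATGTAA and 4.07% held CACGTT. Bmal1 held 1 TAGGTCA, at -16, a motif present in 2.26% of the windows. CACGTT was also found once before Cry2 and once before 1 listed start of Nr1d1, and CACGTG, present in 5.59% of the windows, once before its other listed start. None of the 7 motifs lay in the windows of Per1, Per3, Clock, Nr1d2 or Dbp. Cry1 had no listed promoter window, so it was not searched. A match describes letters in this window, not a binding site. Bases outside the windows were not searched, so the absence of a motif speaks of these 250 bases only.

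Values are log2 expression after RMA (robust multi-array average). Of the 18 probe sets, 16 were bright enough to be tested, and each of the 10 genes had at least 1 of these. The 2 left out, 1 of Per3 and 1 of Clock, had means of 6.15 and 6.33, below the 6.86 that the dimmest 30% of probe sets did not exceed. Each gene's own probe sets were compared between groups, since levels of different probe sets cannot be compared with each other.

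No clock probe set passed an adjusted p of 0.05 with limma (Benjamini-Hochberg over 21729 probe sets) in any comparison. For continuous ethanol against water, 0 of 16 passed, where 0.152% of all tested probe sets did (0.0874% higher and 0.0644% lower). At an unadjusted p under 0.05 there were 4 of 16, against a background of 16.1%. Of these, 2 were higher (Nr1d1 and 1 probe set of Nr1d2), against 9.62%, and 2 lower (Per2 and Per3), against 6.48%. By sign alone 8 were higher and 8 lower, against 52.5% and 47.5%. For limited access against water 0 of 16 passed, with 0% of all probe sets called, and 0 of 16 had an unadjusted p under 0.05, against 4.44% (2.10% higher and 2.34% lower). By sign 6 were higher and 10 lower, against 50.5% and 49.5%. For limited against continuous access 0 of 16 passed, with 0.00460% of all probe sets called, and 5 of 16 had an unadjusted p under 0.05, against 9.31%. The 1 that was higher in limited arrays stands against 3.56% and the 4 that were lower against 5.74%. By sign 7 were higher and 9 lower, against 46.6% and 53.4%. The moderated F test over the 3 groups passed 0 of 16, with 0.0828% called among all probe sets, and 2 of 16 had an unadjusted p under 0.05, against 11.6%. The median difference of the 16 was -0.00 for continuous minus water, -0.02 for limited minus water and -0.00 for limited minus continuous, beside 0.00, 0.00 and -0.01 over all tested probe sets. Their median absolute difference was 0.05, 0.04 and 0.05, beside 0.05, 0.04 and 0.04.

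**Figure D1:**
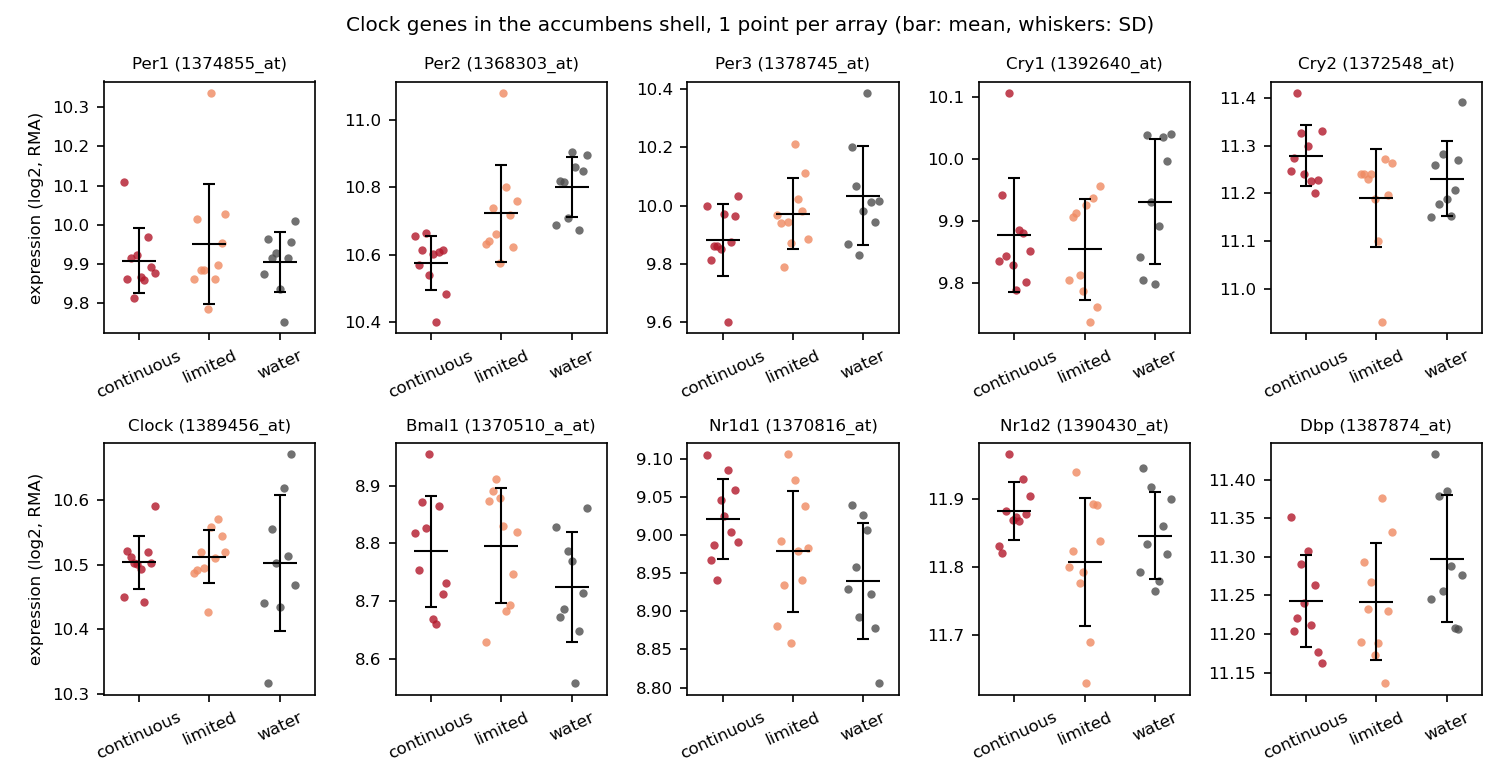
Log2 expression of the brightest probe set of each clock gene, 1 point per array, in the continuous, limited and water groups from left to right, with the mean (bar) and SD (whiskers); each panel has its own scale. For Per2 all 10 continuous arrays (10.40 to 10.66) lie below all 9 water arrays (10.67 to 10.90), while in the other panels the groups overlap.

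Per2 encodes a repressor of CLOCK and BMAL1. Its brighter probe set, 1368303_at, ran from 10.40 over a median of 10.61 to 10.66 in the continuous arrays, from 10.57 over 10.69 to 11.08 in the limited arrays and from 10.67 over 10.82 to 10.90 in the water arrays. Every continuous array was thus below every water array, by a narrow margin, while the limited arrays spread over both ranges. Among the clock probe sets this was the only 1 whose continuous and water arrays did not overlap; of all tested probe sets 0.0322% did not, 0.0184% with the continuous arrays lower and 0.0138% with them higher. Means were 10.57 ± 0.08 (SD, n = 10) in the continuous, 10.72 ± 0.14 (SD, n = 10) in the limited and 10.80 ± 0.09 (SD, n = 9) in the water group. The difference of continuous from water was -0.23 ± 0.05 (SE; 95% interval -0.33 to -0.12), or -14.5%, with a limma adjusted p of 0.0547, which missed the threshold. Limited access differed from water by -0.08 ± 0.05 (adjusted p = 0.972), with 9 of 10 arrays below the water mean, and from continuous access by 0.15 ± 0.05 (95% interval 0.05 to 0.25, adjusted p = 0.526), with 9 of 10 arrays above the continuous mean. Without limited replicate 6 the difference of limited from water was -0.12.

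The adjusted p of Per2 for continuous against water lay on both sides of the threshold when the processing was varied, with the same direction throughout. It was under 0.05 in 6 of 12 alternatives, with differences from -0.25 to -0.20 and adjusted p from 0.0140 to 0.133 over the 12. Leaving out 1 array at a time, it was under 0.05 in 7 of 29 fits: without continuous replicate 1 (0.0479), limited replicates 5 (0.0497), 6 (0.00499) and 7 (0.0493) and water replicates 1 (0.0441), 4 (0.0332) and 7 (0.0496). Limited replicate 6 had the highest value of all arrays, 11.08, and entered this comparison only through the shared estimate of the spread. It belonged to a set of 5 arrays (limited replicates 6 and 7, water replicates 2, 5 and 6) separated from the others along principal component 2, at -22.2 to -15.6 against -3.30 to 20.2 for the rest. None of them was a continuous array. Without those 5 the difference was -0.20 (adjusted p = 0.0859), and that of limited from continuous arrays 0.09.

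Markers of composition and RNA quality were read beside the Per2 values. Of 11 listed markers of medium spiny neurons, the principal neurons of the accumbens, 10 were tested. All 10 were lower in continuous than in water arrays, where 47.5% of all probe sets were lower by sign. Their median difference was -0.07, with 0 past the threshold. The largest of these differences were -0.23 ± 0.06 (SE, adjusted p = 0.136) for Rasd2, -0.20 ± 0.06 (adjusted p = 0.150) for Rgs9 and -0.16 ± 0.06 (adjusted p = 0.218) for Drd2, the 3 markers with an unadjusted p under 0.05, against 6.48% lower among all probe sets. Penk, with a mean of 13.5 over all arrays, and Drd1, with 12.1, differed by -0.04 each. For limited minus continuous all 10 markers were higher (median 0.06), where 46.6% of all probe sets were. Of these 1 had an unadjusted p under 0.05, against 3.56% higher among all probe sets, and 0 passed the threshold. For limited minus water 4 were higher and 6 lower (median -0.01). The mean deviation of the 10 markers from the average array was -0.05 ± 0.12 (SD) in continuous, 0.01 ± 0.11 in limited and 0.05 ± 0.15 in water arrays, over a range from -0.31 to 0.21. With that score as a covariate the Per2 difference was -0.20 (adjusted p = 0.133).

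Of 6 endothelial and mural markers 5 were lower in continuous than in water arrays, with a median difference of -0.13, 0 past the threshold and 3 with an unadjusted p under 0.05. Of all probe sets 47.5% were lower by sign in that comparison, and 6.48% were lower at an unadjusted p under 0.05. Esam, an endothelial adhesion molecule, had 9.36 ± 0.12 (SD) in continuous and 9.60 ± 0.16 in water arrays, a difference of -0.24 ± 0.06 (SE, adjusted p = 0.102). Cldn5, a tight junction protein of brain vessels, differed by -0.21 ± 0.06 (adjusted p = 0.150) and Slco1a4, a transporter of the same cells, by -0.16 ± 0.08 (adjusted p = 0.283). The mean deviation of the 6 was -0.04 ± 0.08 (SD) in continuous, -0.02 ± 0.06 in limited and 0.07 ± 0.10 in water arrays, over a range from -0.20 to 0.31, and its part in the Per2 difference was not tested. Of 9 leptomeningeal markers 9 were lower in continuous than in water arrays, 0 past the threshold and 0 with an unadjusted p under 0.05, with a mean deviation of -0.11 ± 0.60 in continuous, -0.07 ± 0.34 in limited and 0.20 ± 0.41 in water arrays. With that score as a covariate the Per2 difference was -0.24 (adjusted p = 0.0447). Among the other cell types, 4 of 6 astrocyte, 2 of 4 oligodendrocyte and 2 of 4 microglial markers were lower. Of 5 tested markers of cortical and other projection neurons 1 was lower and 4 were higher (median 0.07). The lower 1 was Rorb, whose same probe set also stands on the list of clock regulators read below. Of 3 lateral septum and cholinergic markers 1 was lower and 2 were higher (median 0.11). In both of these lists 0 passed the threshold, and their part in the Per2 difference was not tested. RNA quality was read from control transcripts as their 3 prime signal less their 5 prime signal, which was 0.57 ± 0.06 in continuous, 0.50 ± 0.05 in limited and 0.53 ± 0.03 in water arrays, and with it as a covariate the difference was -0.22 (adjusted p = 0.128). In bulk tissue fewer cells of a type and less RNA per cell cannot be told apart.

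The dimmer Per2 probe set, 1378560_at, was closer between the groups. It had 8.97 ± 0.08 (SD) in continuous, 9.03 ± 0.10 in limited and 9.03 ± 0.07 in water arrays, with a difference of continuous from water of -0.06 ± 0.04 (SE, adjusted p = 0.482) and overlapping groups. Per array, the brighter minus the dimmer probe set was 1.61 ± 0.13 (SD, n = 10) in continuous and 1.78 ± 0.12 (SD, n = 9) in water. The 2 probe sets thus differed in their change by -0.17 (exact two-sided permutation p = 0.0106, adjusted p = 0.0318 over 3 comparisons), a test chosen after their values were seen. For limited minus water that difference was -0.09 (exact p = 0.172, adjusted p = 0.202), and for limited minus continuous 0.08 (exact p = 0.202, adjusted p = 0.202). Within groups their correlation over the 29 arrays was near 0 (Pearson's r = 0.08, permutation p = 0.714, adjusted p = 0.714; Spearman's rho = 0.04, permutation p = 0.860, adjusted p = 0.860; r = -0.08 without the 2 arrays farthest from the median).

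Per3, a further period protein that interacts with PER and CRY, was the other clock gene with a lower mean in continuous arrays at an unadjusted p under 0.05. Its tested probe set ran from 9.60 over 9.87 to 10.03 in continuous, from 9.79 over 9.96 to 10.21 in limited and from 9.83 over 10.01 to 10.39 in water arrays. The groups overlapped. All 10 continuous arrays lay below the water mean, but continuous replicate 10 only just, at 10.0341 against 10.0343. That array was above the water median. Continuous differed from water by -0.15 ± 0.06 (SE; 95% interval -0.28 to -0.02, adjusted p = 0.238), limited from water by -0.06 ± 0.06 (adjusted p = 0.972) and limited from continuous by 0.09 ± 0.06 (adjusted p = 0.639). The first of these was -0.07 (adjusted p = 0.664) without those 5 separated arrays and -0.08 (adjusted p = 0.529) with array weights, and the other values without those 5 were -0.02 for limited minus water and 0.05 for limited minus continuous. The dim Per3 probe set, which was not tested, had 6.18 ± 0.08 in continuous, 6.10 ± 0.19 in limited and 6.16 ± 0.12 in water arrays.

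Per1, whose transcription responds rapidly to neuronal activity and to glucocorticoids as well as to the clock, had nearly equal means. It ran from 9.81 over 9.89 to 10.11 in continuous, from 9.79 over 9.89 to 10.34 in limited and from 9.75 over 9.92 to 10.01 in water arrays, with the highest value in limited replicate 6. Continuous differed from water by 0.00 ± 0.05 (SE; 95% interval -0.10 to 0.11, adjusted p = 0.984), limited from water by 0.05 ± 0.05 (interval -0.06 to 0.15, adjusted p = 0.972) and limited from continuous by 0.04 ± 0.05 (adjusted p = 0.815). Both differences of the limited group rested on limited replicate 6: without it limited minus water was 0.00244 and limited minus continuous -0.000736. Without those 5 separated arrays limited minus water was -0.02. The interval of the continuous minus water difference thus left room for changes of about 0.1 in either direction.

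The cryptochromes are the partners of the period proteins and the stronger repressors of the loop. Cry1 ran from 9.79 over 9.85 to 10.11 in continuous, from 9.74 over 9.86 to 9.96 in limited and from 9.80 over 9.93 to 10.04 in water arrays. Its groups overlapped, with differences of -0.05 ± 0.04 (SE) for continuous minus water (adjusted p = 0.537) and -0.08 ± 0.04 for limited minus water (adjusted p = 0.972), 8 of 10 arrays being below the water mean in each. Without those 5 separated arrays the values were -0.10 (adjusted p = 0.464) and -0.12 (adjusted p = 0.956). The brighter Cry2 probe set, 1372548_at, ran from 11.20 over 11.26 to 11.41 in continuous, from 10.93 over 11.24 to 11.27 in limited and from 11.15 over 11.21 to 11.39 in water arrays. Here the lowest array was limited replicate 7. All 10 limited arrays lay below the continuous mean, the highest by a narrow margin (11.272 against 11.279). Limited differed from continuous by -0.09 ± 0.04 (SE; 95% interval -0.17 to -0.01, adjusted p = 0.527), and continuous from water by 0.05 ± 0.04 (adjusted p = 0.564). Without those 5 separated arrays the limited minus continuous value was -0.04. The dimmer Cry2 probe set had differences of -0.03, -0.04 and -0.00 for continuous minus water, limited minus water and limited minus continuous. Within groups the correlation of the 2 Cry2 probe sets was near 0 over the 29 arrays. Pearson's r was 0.08 (permutation adjusted p = 0.714) and rho 0.05 (permutation adjusted p = 0.860), with r = 0.10 without the 2 farthest arrays.

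On the activating arm, Clock encodes a histone acetyltransferase that pairs with BMAL1. Its 3 tested probe sets gave -0.04, 0.00 and 0.12 for continuous minus water, from -0.00 to 0.02 for limited minus water and from -0.12 to 0.06 for limited minus continuous. The brightest, 1389456_at, had 10.50 ± 0.04 (SD) in continuous, 10.51 ± 0.04 in limited and 10.50 ± 0.11 in water arrays, and its interval for continuous minus water was -0.07 to 0.07. Probe set 1390199_at ran from 9.67 over 9.75 to 9.94 in continuous, from 9.18 over 9.70 to 9.90 in limited and from 9.48 over 9.68 to 9.81 in water arrays. All 10 continuous arrays were above the water mean of that probe set, the lowest by a narrow margin (9.674 against 9.659). Limited replicate 6 was the lowest array. Its differences were 0.12 ± 0.06 (SE) for continuous minus water (adjusted p = 0.329) and -0.12 ± 0.06 for limited minus continuous (adjusted p = 0.536). Without those 5 separated arrays these were 0.06 (adjusted p = 0.626) and -0.05. Within groups no correlation between Clock probe sets passed: over their 3 pairs r was -0.13, 0.11 and 0.13 (permutation adjusted p = 0.700 each, n = 29 arrays) and rho -0.17, 0.27 and 0.08 (adjusted p = 0.630, 0.348 and 0.860). The untested Clock probe set had 6.25 ± 0.19 in continuous, 6.41 ± 0.21 in limited and 6.32 ± 0.20 in water arrays.

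Bmal1, the partner of CLOCK, ran from 8.66 over 8.79 to 8.95 in continuous, from 8.63 over 8.83 to 8.91 in limited and from 8.56 over 8.71 to 8.86 in water arrays. In both ethanol groups 7 of 10 arrays were above the water mean, and the groups overlapped. The differences were 0.06 ± 0.05 (SE; 95% interval -0.03 to 0.15, adjusted p = 0.502) for continuous minus water, 0.07 ± 0.05 (interval -0.02 to 0.16, adjusted p = 0.972) for limited minus water and 0.01 ± 0.04 (adjusted p = 0.968) for limited minus continuous. The first was 0.03 (adjusted p = 0.853) without those 5 separated arrays.

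The REV-ERB genes encode nuclear receptors that repress Bmal1 transcription. Nr1d1 ran from 8.94 over 9.02 to 9.11 in continuous, from 8.86 over 8.98 to 9.11 in limited and from 8.81 over 8.93 to 9.04 in water arrays. All 10 continuous arrays lay above the water mean, the lowest only just (8.942 against 8.940), and the ranges overlapped. Continuous differed from water by 0.08 ± 0.03 (SE; 95% interval 0.01 to 0.15, adjusted p = 0.251), limited from water by 0.04 ± 0.03 (adjusted p = 0.972) and limited from continuous by -0.04 ± 0.03 (adjusted p = 0.697). The first was 0.12 and the second 0.07 without those 5 separated arrays. The probes of Nr1d1 were not compared with those of Thra, which lies on the opposite strand and overlaps the end of Nr1d1, so a share of its signal from that partner was not tested.

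The 3 Nr1d2 probe sets did not give 1 answer for continuous minus water, with 0.04, 0.12 and -0.00 from the brightest to the dimmest. The brightest, 1390430_at, ran from 11.82 over 11.88 to 11.96 in continuous, from 11.63 over 11.81 to 11.94 in limited and from 11.77 over 11.83 to 11.94 in water arrays. Probe set 1370541_at ran from 10.67 over 10.85 to 10.93 in continuous, from 10.34 over 10.72 to 10.87 in limited and from 10.56 over 10.73 to 10.82 in water arrays. Limited replicate 6 was the lowest array on both, and 9 of 10 continuous arrays lay above the water mean of the second. For 1370541_at the differences were 0.12 ± 0.05 (SE; 95% interval 0.01 to 0.23, adjusted p = 0.269) for continuous minus water and -0.13 ± 0.05 (interval -0.24 to -0.02, adjusted p = 0.526) for limited minus continuous. The second of these was -0.06 without those 5 separated arrays. Limited differed from continuous by -0.07 ± 0.03 (adjusted p = 0.529) on the brightest probe set (-0.04 without those 5 separated arrays) and by -0.02 ± 0.07 (adjusted p = 0.941) on the dimmest.

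Within groups 2 of the 3 pairs of Nr1d2 probe sets passed by both r and rho. The brightest and 1370541_at gave r = 0.72 (permutation adjusted p = 0.00120 over 8 pairs of probe sets of 1 gene, n = 29 arrays) and rho = 0.58 (adjusted p = 0.0206), with r = 0.54 without the 2 farthest arrays and 0.50 without those 5 separated arrays. For the brightest and the dimmest r was 0.52 (adjusted p = 0.0179) and rho 0.49 (adjusted p = 0.0338), with r = 0.35 without the 2 farthest. The remaining pair gave r = 0.48 (adjusted p = 0.0290) and rho = 0.43 (adjusted p = 0.0611), with r = 0.17 without the 2 farthest, so it rested on those arrays. Whether the strength of this agreement differed between genes was not tested.

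Dbp, a leucine zipper factor driven directly by CLOCK and BMAL1, ran from 11.16 over 11.23 to 11.35 in continuous, from 11.14 over 11.23 to 11.38 in limited and from 11.21 over 11.28 to 11.43 in water arrays. In each ethanol group 8 of 10 arrays were below the water mean. Continuous differed from water by -0.05 ± 0.04 (SE; 95% interval -0.13 to 0.02, adjusted p = 0.449) and limited from water by -0.06 ± 0.04 (interval -0.13 to 0.02, adjusted p = 0.972), while limited minus continuous was -0.00 ± 0.03 (interval -0.07 to 0.07, adjusted p = 0.996). The first was -0.02 and the second -0.03 without those 5 separated arrays. The continuous and limited comparisons share the water arrays, so their like values are not independent.

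**Figure D2:**
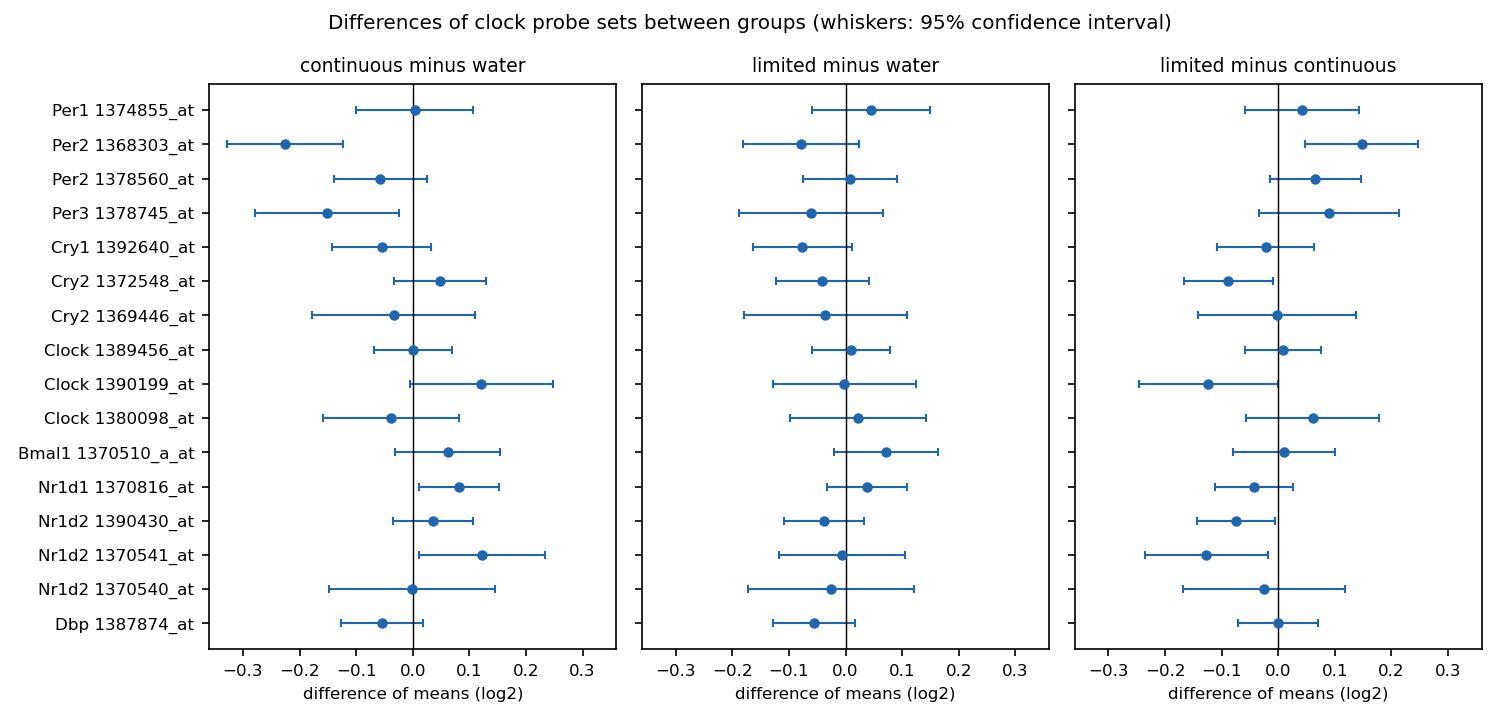
Log2 differences between group means for the 16 tested clock probe sets, in the 3 comparisons, with 95% confidence intervals from limma that are not adjusted for the number of probe sets. The brighter Per2 probe set, 1368303_at, has the largest difference, -0.23 for continuous minus water; in limited minus water every interval includes 0.

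Other genes of the clock and its outputs were read from 2 lists, 55 genes in all with 7 in both, each on its brightest tested probe set. Of the 55, 45 could be tested, and 0 passed with limma in any of the 3 comparisons. At an unadjusted p under 0.05 there were 3 higher and 3 lower for continuous minus water, 0 and 2 for limited minus water and 0 and 1 for limited minus continuous. The shares over all probe sets were 16.1% (9.62% higher and 6.48% lower), 4.44% (2.10% and 2.34%) and 9.31% (3.56% and 5.74%). For continuous minus water the 19 tested output genes held 1 of the higher and 3 of the lower genes. The 32 tested regulators held 2 and 0. The 2 lower genes for limited minus water were 1 output gene and 1 regulator. Whether these small counts differed from the shares was not tested. By sign 52.5%, 50.5% and 46.6% of all probe sets were higher in the 3 comparisons, in the same order. Against water the output genes leaned lower, while the regulators lay nearer those shares. Of 19 tested output genes 6 were higher and 13 lower for continuous minus water (median -0.06), and likewise 6 and 13 for limited minus water (median -0.06), comparisons that share the water arrays. Of 32 tested regulators 20 were higher and 12 lower for continuous minus water (median 0.01) and 19 and 13 for limited minus water (median 0.02). The median over all tested probe sets was 0.00 in both comparisons, and whether the lists differed was not tested. For limited minus continuous 12 output genes were higher and 7 lower (median 0.03), and 16 regulators higher and 16 lower (median -0.00). For continuous minus water the smallest p belonged to Tsc22d3 (GILZ), a glucocorticoid-induced leucine zipper gene that also cycles, which had 11.19 ± 0.09 (SD) in continuous and 11.33 ± 0.06 in water arrays, a difference of -0.14 ± 0.04 (SE, adjusted p = 0.127). Coq10b, which serves coenzyme Q function in mitochondria, had a difference of 0.14 ± 0.05 (adjusted p = 0.208), and Wee1, a cell cycle kinase gene that is a clock target in mouse liver, of -0.10 ± 0.04 (adjusted p = 0.217).

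For limited minus water the genes of smallest p were Rorb, Tsc22d3 and Creb1. Rorb, a nuclear receptor of the ROR family that activates Bmal1, had 6.93 ± 0.12 (SD) in limited and 7.04 ± 0.07 in water arrays (difference -0.12 ± 0.05 SE, adjusted p = 0.972). Tsc22d3 differed by -0.10 ± 0.04 and Creb1, the transcription factor that carries cyclic AMP signals to the Per genes, by 0.15 ± 0.08 (adjusted p = 0.972 each). For limited minus continuous the smallest p belonged to Nono, a partner of PER proteins (-0.07 ± 0.04, adjusted p = 0.536), Nampt, an enzyme of NAD synthesis (-0.13 ± 0.06, adjusted p = 0.539), and Tipin, the partner of TIMELESS (-0.08 ± 0.05, adjusted p = 0.557). Rorb and Tipin were dim, with means over all arrays of 6.98 and 6.89, just above the brightness cut of 6.86.

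Clock genes run in known phases, so their covariation between arrays of a group was measured. Each array's value was taken as its deviation from its group mean, on the brightest probe set of each gene, over 29 arrays and 45 pairs of genes. By Pearson's r 0 of 45 pairs passed after adjustment (100000 permutations of arrays within groups), and 7 had an unadjusted p under 0.05. The share of such pairs among all genes was not measured, so the 7 cannot be set against a background. Cry2 and Nr1d2 had r = 0.61 (permutation p = 0.00237, adjusted p = 0.107) and rho = 0.63 (permutation p = 0.00063, adjusted p = 0.0283), the 1 pair that passed by rank. Without the 2 arrays farthest from the median of Cry2 r was 0.54, and within groups it was 0.20 in continuous, 0.69 in limited and 0.69 in water arrays. Without those 5 separated arrays it was 0.33 (adjusted p = 0.503).

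Per1 and Per2 had r = 0.58 (permutation p = 0.0201, adjusted p = 0.249) but rho = 0.19 (adjusted p = 0.688). That r rested on limited replicate 6, the highest array for both genes, and was 0.17 (adjusted p = 0.675) without it. Per2 and Per3 had r = 0.49 (adjusted p = 0.172) and rho = 0.39 (adjusted p = 0.280), with r = 0.25 without the 2 farthest arrays. Nr1d1 and Dbp, both direct targets of CLOCK and BMAL1, had r = 0.43 (adjusted p = 0.249) and rho = 0.47 (adjusted p = 0.196), with r = 0.45 without the 2 farthest arrays. Clock and Dbp had r = -0.43 (adjusted p = 0.249) and rho = -0.37 (adjusted p = 0.289), with r = -0.19 without the 2 farthest arrays. For Nr1d1, r was -0.40 with Cry1 and 0.39 with Per3 (adjusted p = 0.249 each). Their rho was -0.39 and 0.38 (adjusted p = 0.280 each), and r without the 2 farthest arrays -0.26 and 0.26.

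Bmal1, which peaks in antiphase to Per3, Nr1d1 and Dbp in most tissues, had r = -0.37 with Per3 (adjusted p = 0.249; rho = -0.46, adjusted p = 0.196; r = -0.30 without the 2 farthest arrays). With Nr1d1 its r was -0.11 (adjusted p = 0.678; rho = -0.13, adjusted p = 0.727), and with Dbp 0.05 (adjusted p = 0.865; rho = 0.09, adjusted p = 0.727). Without the 2 farthest arrays r was -0.18 and -0.01 for these pairs. The pair of REV-ERB genes had r = -0.33 (adjusted p = 0.407) and rho = -0.33 (adjusted p = 0.417), with r = -0.29 without the 2 farthest arrays.

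**Figure D3:**
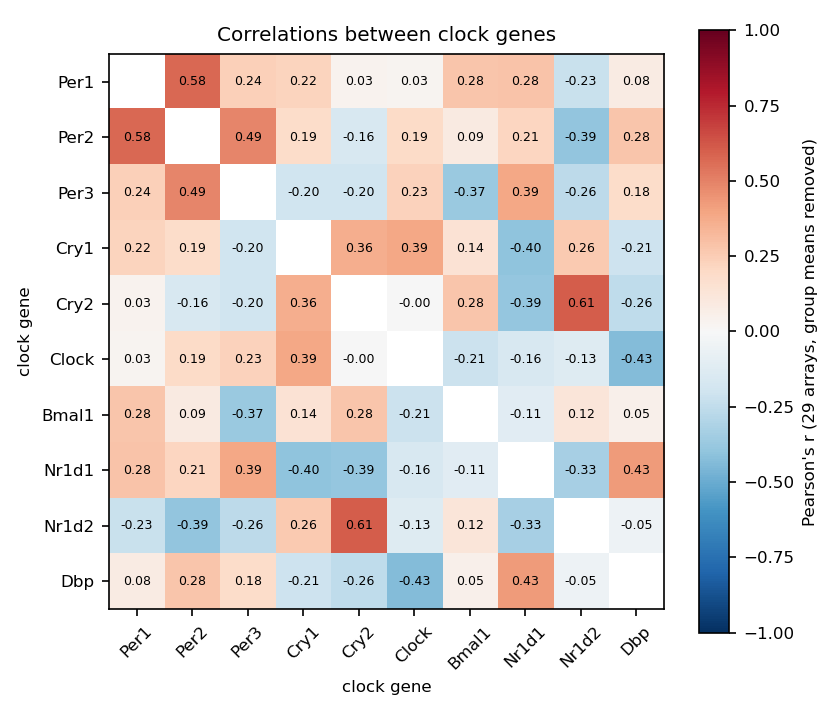
Pearson's r between the brightest probe sets of each pair of the 10 clock genes over 29 arrays, after group means were removed; red is positive and blue negative. The highest value is 0.61 for Cry2 and Nr1d2 and the lowest -0.43 for Clock and Dbp, and 0 of 45 pairs passed after adjustment.

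**Figure D4:**
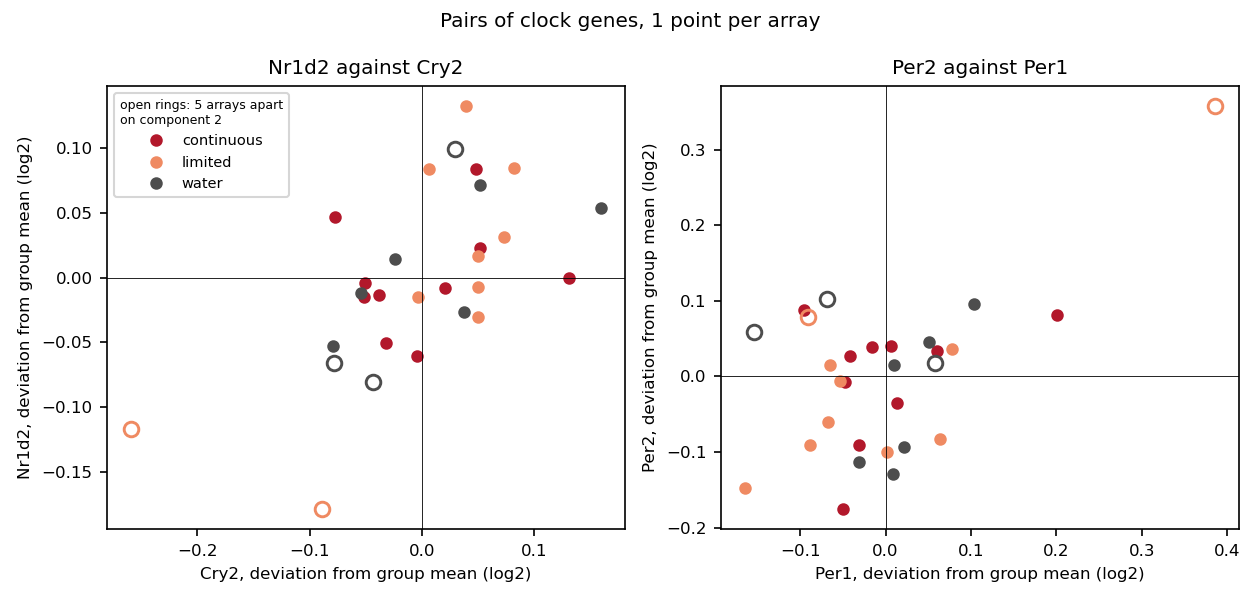
Deviations from the group mean on the log2 scale, 1 point per array, for Nr1d2 against Cry2 (left) and Per2 against Per1 (right); open rings are limited replicates 6 and 7 and water replicates 2, 5 and 6, the arrays separated along principal component 2. At left limited replicates 6 and 7 lie at the low end of both genes, and at right limited replicate 6 lies alone at the top of both.

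The genes most like each clock gene were sought among all tested probe sets with 1 symbol, by Pearson's r of deviations from group means over the same 29 arrays. They were chosen for a high r among all of these, so no p is given. Of the 30 named, 3 for each clock gene, 0 were members of the clock lists. The lists of other clock and output genes named only 55 genes, beside 14218 genes with a probe set of 1 symbol. With so few listed, 0 of 30 is likely in any case. The count therefore does not show whether clock genes vary together. Per2 was most like Wdr90 (r = 0.84, rho = 0.76), Rap1gap2 (r = 0.83, rho = 0.76) and Apba1 (r = 0.82, rho = 0.75). Per3 was most like Macf1 (r = 0.83), Cry1 like Ndufaf7 (r = 0.84), Cry2 like Spop (r = 0.84) and Nr1d2 like Sdcbp (r = 0.83). For Bmal1 the highest was Sorl1 (r = 0.70), for Dbp Prpf38b (r = 0.74), for Nr1d1 Ppp1r14b (r = 0.76), for Clock Rfx7 (r = 0.74) and for Per1 Ndufa4l2 (r = 0.75, rho = 0.54). These arrays share the second component and the quality measures given above, whose part in these values was not tested.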

How the data were processed

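The deposited values are log2 expression values per probe set, made by the authors with RMA, per the submitters' processing notes, with no version named. The values ran from 4.04 to 16.04, the range of log2 RMA data. RMA makes the distributions of arrays alike (array medians 8.17 to 8.21), which hides any shift common to all genes. The table held 31099 probe sets. The 57 control probe sets and the dimmest 30% by mean over all arrays (means up to 6.86) were left out, which left 21729. Of all probe sets, 20832 had 1 symbol in the platform annotation, 436 several and 9831 none; all 18 clock probe sets matched the GRCr8 gene table by gene ID.

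A single linear model with 3 groups covered the 29 arrays (lmFit and eBayes of limma 3.58.1, R 4.3.3). Tests were two-sided and adjusted by Benjamini-Hochberg over those 21729, and 0.05 was the threshold. Correlations used Python 3.11.15 with numpy 2.4.6 and scipy 1.17.1. The number of arrays limits the precision. The clock genes and all lists were chosen with earlier results of these data known. Genes named beside the clock genes were the 3 of smallest p among the listed genes in each comparison, and the 3 most like each clock gene. Alternatives were no filter or one at 50%, repeated quantile normalization or median centring, array weights, a robust trended prior, replicate number as block, fits to the compared groups alone, covariates for 3 prime to 5 prime signal, leptomeningeal and medium spiny neuron scores, leaving out 5 arrays, and leaving out each array. The test between the Per2 probe sets and single arrays left out of the correlations were added after seeing the data. Simulated data with known changes were also put through the model. They were drawn independently for each probe set, without the covariation between probe sets that real arrays have. Their outcome is not given here.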

Additional observations from a re-analysis of the deposited data

Results flagged for a closer look

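Among 54 groups of values (18 probe sets in 3 groups), 10 held an array whose gap to its nearest neighbour was large against the range of its group, a rule that chance meets in about 1 in 20 groups. Limited replicate 6 was the highest for Per1 at 10.34, against 10.03 for the next, and for the brighter Per2 probe set at 11.08, against 10.80. Limited replicate 7 was the lowest for the brighter Cry2 probe set at 10.93. Both arrays were separated from most others along principal component 2. Limited replicate 10 was the highest for Clock probe set 1380098_at at 8.54, and continuous replicate 4 was the highest of its group there at 8.52. The other continuous arrays were replicate 1 for Per1 (10.11), replicate 6 for the dimmer Per2 probe set (8.78), replicate 7 for Per3 (9.60), replicate 4 for Cry1 (10.11) and replicate 10 for Clock probe set 1389456_at (10.59). In water arrays 0 were found.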

How the results depend on the processing

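Across 41 alternatives, 12 of processing and 29 that left out 1 array, 1845 of 1968 recomputed clock differences kept their direction and their side of the threshold. A further 13, all of Per2 probe set 1368303_at for continuous against water, came to pass, and 110 changed sign, all in 19 of 48 differences and none larger than 0.0507 in size. The count of clock probe sets called for continuous against water was 0 as reported and 1 with the stricter filter, repeated quantile normalization, the trended and robust prior, array weights, only the groups compared or the leptomeningeal covariate, the called probe set being that of Per2 each time; with the stricter filter fewer probe sets were tested, and for the others the cause was not tested. Leaving out 1 array gave 0 to 1 there and 0 to 1 for the F test, where limited replicate 6 gave the 1. The counts for both comparisons of limited access stayed at 0. The replicate block gave 0 clock probe sets in every comparison (Per2 -0.22, adjusted p = 0.0804), and it changed no call of a clock probe set. Over 28 pairs of arrays with the same number the correlation of deviations from group means lay between -0.24 and 0.34, with 12 over 0.1, and 2 of 29 arrays were most like an array of their own number, so the numbers were not taken to pair the samples. Pairs of clock genes past the threshold by r were 0, against 1 with averaged probe sets per gene (Clock and Nr1d2), 2 with the replicate block (Per1 with Per2 and with Bmal1) and 0 to 1 leaving out single arrays. The r of Clock and Dbp was 0.0126 with averaged probe sets per gene, against -0.43. Over all probe sets the 33 calls for continuous against water became 12 without the 5 arrays separated along principal component 2, and 18, 59, 94 and 66 without water replicates 5, 8 and 4 and limited replicate 6. The 0 calls for limited access against water became 1 with array weights, the 1 call for limited against continuous access ranged from 0 to 3, and the 18 calls of the F test from 10 to 22.

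The differences that changed sign were near 0, so their direction was not settled, and the cause was not tested. The probe sets of a gene are named by brightness. Under repeated quantile normalization the values were, for continuous minus water Per1 -0.00972, Clock brightest -0.0173; for limited minus water Clock second 0.000401; for limited minus continuous Cry2 second 0.0105, Dbp 0.0109. Centred on array medians the values were, for continuous minus water Clock brightest -0.000508; for limited minus water Clock second 0.000541; for limited minus continuous Cry2 second 0.00219, Dbp 0.00348. With array weights the values were, for continuous minus water Clock brightest -0.0129, Nr1d2 dimmest tested 0.0217; for limited minus water Per2 second -0.00679, Clock brightest -0.0173, Clock second 0.0160, Nr1d2 second 0.0494; for limited minus continuous Per1 -0.00873, Clock brightest -0.00449. With the replicate block the values were, for continuous minus water Clock brightest -0.00409; for limited minus water Nr1d2 second 0.00300. With 3 prime to 5 prime signal as a covariate the values were, for continuous minus water Per1 -0.00126, Clock brightest -0.00228, Nr1d2 dimmest tested 0.0119; for limited minus water Per2 second -0.00996, Clock second 0.0161, Clock dimmest tested -0.00991; for limited minus continuous Cry1 0.00186, Clock dimmest tested -0.00437, Bmal1 -0.00129. With the leptomeningeal score the values were, for continuous minus water Per1 -0.00213, Clock brightest -0.0123; for limited minus water Clock brightest -0.00164; for limited minus continuous Cry2 second 0.000824. With the medium spiny neuron score the values were, for continuous minus water Nr1d2 dimmest tested 0.00503; for limited minus continuous Clock brightest -0.00788, Bmal1 -0.00178. Without the 5 separated arrays the values were, for continuous minus water Per1 -0.0243, Clock brightest -0.0217; for limited minus water Per1 -0.0191, Per2 second -0.00718, Clock brightest -0.0184, Clock second 0.0169, Nr1d2 second 0.0466; for limited minus continuous Nr1d2 dimmest tested 0.00904. With 1 array left out at a time, the differences that changed sign for some array ranged as follows: for continuous minus water Per1 -0.0191 to 0.0162, Clock brightest -0.0221 to 0.0221, Nr1d2 dimmest tested -0.0335 to 0.0400; for limited minus water Per2 second -0.00562 to 0.0320, Clock second -0.0291 to 0.0507, Nr1d2 second -0.0247 to 0.0353, Nr1d2 dimmest tested -0.0583 to 0.00874, Cry2 second -0.0707 to 0.00323, Clock dimmest tested -0.0123 to 0.0383, Clock brightest -0.0133 to 0.0309; for limited minus continuous Cry2 second -0.0307 to 0.0366, Dbp -0.0159 to 0.0111, Cry1 -0.0337 to 0.00315, Nr1d2 dimmest tested -0.0662 to 0.00994, Bmal1 -0.00439 to 0.0282, Per1 -0.000736 to 0.0645.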
